A study of Homo sapiens with 12 samples.

Results

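The G2 and mitosis genes are 43 genes whose products take a cell from the end of DNA replication through chromosome segregation and division. They were chosen by name and role, with earlier results of these data known. Each was followed through all array probes annotated to it with a detection p-value below 0.05 on at least 3 of 12 arrays. Of 66 such probes 65 passed, 64 of them detected on all 12 arrays, and every one of the 43 genes kept at least 1 probe among the 13293 genes tested. By role, 14 members regulate entry into and exit from mitosis, 13 belong to the kinetochore, the centromere and the spindle checkpoint, 14 build the spindle or carry out cytokinesis, and 2 (TOP2A and MKI67) are chromosome proteins used as proliferation markers. Each gene is given by its probe with the highest mean signal, a choice made over all arrays, and the 22 further probes of 21 members are set beside it.

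The values come from Illumina bead arrays of 2 established human urothelial (bladder) cancer cell lines, with 3 arrays in each of 4 groups. UM-UC9 cells were either untreated or given 1 µM rosiglitazone, an activator of the nuclear receptor PPARG, for 24 hours. UM-UC14 cells expressed short hairpin RNAs (shRNAs), either non-targeting or directed at FABP4, which encodes a fatty acid binding protein and is a known PPARG target. No UM-UC14 group lacked an shRNA and no UM-UC9 group carried one, and the labels do not state whether an shRNA group was 1 clone or a pool, nor whether untreated cells received a drug solvent. Nothing in them says that the replicates of a group came from separate cultures, so the p-values measure only the spread between these arrays, which may be technical. The comparisons ask what expression does when FABP4 is raised by the drug or lowered by the shRNA.

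All values below are log2 intensities after background correction and quantile normalization, and a change was called where limma's p-value, from 1 model of the 12 arrays, stayed below 0.05 after Benjamini-Hochberg adjustment over all tested genes. Between 20892 and 22407 of 47323 probes were detected per array, and arrays of 1 group correlated at 0.984 to 0.997. FABP4 itself, the check of the labels, had group means of 10.96 in untreated and 14.66 in treated UM-UC9 cells, and of 14.04 with the non-targeting and 10.33 with the FABP4 shRNA. PPARG, the drug's receptor, read -0.46 with the drug (adjusted p = 0.0065) and -0.21 with the FABP4 shRNA (adjusted p = 0.20). Of 13 epithelial and urothelial markers 12 were tested and 11 were detected on all arrays. Their summed signal lay between 15.71 and 15.77 in untreated and between 16.01 and 16.02 in treated UM-UC9 cells, and between 15.81 and 15.99 with the non-targeting and between 15.82 and 15.94 with the FABP4 shRNA. Gene by gene, 5 of the 12 were called higher and 1 lower with rosiglitazone, against 17% and 19% of all tested genes. With the FABP4 shRNA 0 were called higher and 5 lower, with changes down to -1.6, against 14.2% and 12.2% of all tested genes. Of 6 fibroblast markers 4 were tested, without COL3A1 and PDGFRB, and 1 was detected on all arrays. Their sum lay between 7.82 and 7.97 untreated and between 8.15 and 8.24 treated, and between 8.59 and 9.13 with the non-targeting and between 9.47 and 9.55 with the FABP4 shRNA. Of 8 blood and endothelial markers 4 were tested, without PTPRC, CD3E and VWF, and 1 was detected on all arrays. Their sum lay between 8.40 and 8.54 untreated, 8.79 and 8.81 treated, 7.80 and 8.60 with the non-targeting and 7.79 and 8.02 with the FABP4 shRNA. The part of these shifts in the results below was not tested.

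Entry into mitosis is driven by the kinase CDK1 with its partners cyclin A and cyclin B, which the phosphatase CDC25C helps to switch on. Kinetochores on each centromere then catch spindle microtubules while checkpoint kinases hold back CDC20, the activator of the anaphase-promoting complex, until every chromosome is attached. The genes of this programme are transcribed together late in the cell cycle by the factors FOXM1 and MYBL2 with the MuvB core, are repressed in resting cells by the DREAM complex, and serve as a common measure of proliferation in tumours, bladder cancer included. In RNA from a bulk culture, a change in the share of cells that are in G2 or mitosis and a change of RNA per cell cannot be told apart.

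The DREAM and MuvB complexes bind a short promoter element, the cell cycle genes homology region (CHR), which is often accompanied by CCAAT boxes. The promoters of 4 members are shown because these genes changed differently in the 2 experiments: CDC25C and TOP2A were called higher with rosiglitazone, PLK1 and MKI67 with the FABP4 shRNA. Each line gives the 250 bases before the transcript start, 5′ to 3′ on the gene's strand, from RefSeq on GRCh38.p14, with capitals for the letters TTTGAA or TTCGAA and for CCAAT, on either strand. The windows are chr5:138331805-138332054 (minus strand) for CDC25C, whose annotated gene begins farther upstream, chr16:23678639-23678888 (plus strand) for PLK1, chr10:128126424-128126673 (minus strand) for MKI67 and chr17:40417897-40418146 (minus strand) for TOP2A.
CDC25C: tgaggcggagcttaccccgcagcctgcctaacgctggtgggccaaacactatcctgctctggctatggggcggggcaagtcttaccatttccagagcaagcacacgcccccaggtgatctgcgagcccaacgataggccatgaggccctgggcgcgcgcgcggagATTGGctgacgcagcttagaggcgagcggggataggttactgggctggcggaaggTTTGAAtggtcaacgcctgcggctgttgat
PLK1: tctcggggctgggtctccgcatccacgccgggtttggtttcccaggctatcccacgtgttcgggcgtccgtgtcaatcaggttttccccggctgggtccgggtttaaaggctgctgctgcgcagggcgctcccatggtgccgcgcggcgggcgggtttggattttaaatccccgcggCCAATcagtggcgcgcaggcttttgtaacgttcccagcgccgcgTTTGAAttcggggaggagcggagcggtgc
MKI67: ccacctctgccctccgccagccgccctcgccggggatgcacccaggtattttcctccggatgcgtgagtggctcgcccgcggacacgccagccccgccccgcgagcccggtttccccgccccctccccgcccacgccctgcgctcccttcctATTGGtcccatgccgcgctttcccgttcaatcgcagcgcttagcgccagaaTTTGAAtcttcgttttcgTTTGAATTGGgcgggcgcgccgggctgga
TOP2A: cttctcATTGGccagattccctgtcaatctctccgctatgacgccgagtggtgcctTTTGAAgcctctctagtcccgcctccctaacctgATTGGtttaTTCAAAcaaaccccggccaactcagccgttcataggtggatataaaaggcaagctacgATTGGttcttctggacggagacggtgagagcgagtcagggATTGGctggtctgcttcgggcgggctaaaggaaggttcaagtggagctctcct
Counted from the transcript start, the CHR letters began at position -30 in CDC25C and at -29 in PLK1. MKI67 held them at -47 and at -29, the latter sharing 1 base with a CCAAT box, and TOP2A held them farther away, at -194 and -151. Of the 43 members 36 had a window in the table (250 bases before to 50 after a start), and 27 of those 36 (75%) held the CHR letters in at least 1 window. The same letters stood in 19.5% of all 27305 genes of the table and in 16.1% of the tested genes. CCAAT stood in 80.6% of the members against 39.7% of all genes, and 63.9% of the members against 7.85% of all genes held both motifs in 1 window. A match is a description of the letters and not a bound site.

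Most of the G2 and mitosis genes rose by small amounts in UM-UC9 cells given rosiglitazone. Of the 43, 28 were called higher, 1 was called lower (INCENP, a scaffold of the chromosomal passenger complex) and 14 did not pass, against 17% of all tested genes called higher and 19% called lower (36.0% in either direction). The median member changed by 0.35 on the log2 scale and the median tested gene by -0.02, and the members ranged from -0.61 to 0.90. Over all 65 kept member probes 35 were called higher and 1 lower, against 13.9% and 14.7% of all 25176 kept probes. In 34 members all 3 treated arrays lay above all 3 untreated arrays, which held for 25.2% of all tested genes. In 2 members, BIRC5 and INCENP, they lay below, which held for 28.7%. Scaling the arrays to a common median in place of quantile normalization left 15 members called higher and 1 lower, with the median of all tested genes at -0.05. Of the 29 called members 19 kept their call with each of the 12 arrays left out in turn and 15 under all 21 alternatives tried. The calls lost without at least 1 array were those of CCNB1, FOXM1, UBE2C, TTK, CDCA8, KIF11, KIF20A, TPX2, PRC1 and CKAP2.

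**Figure D1:**
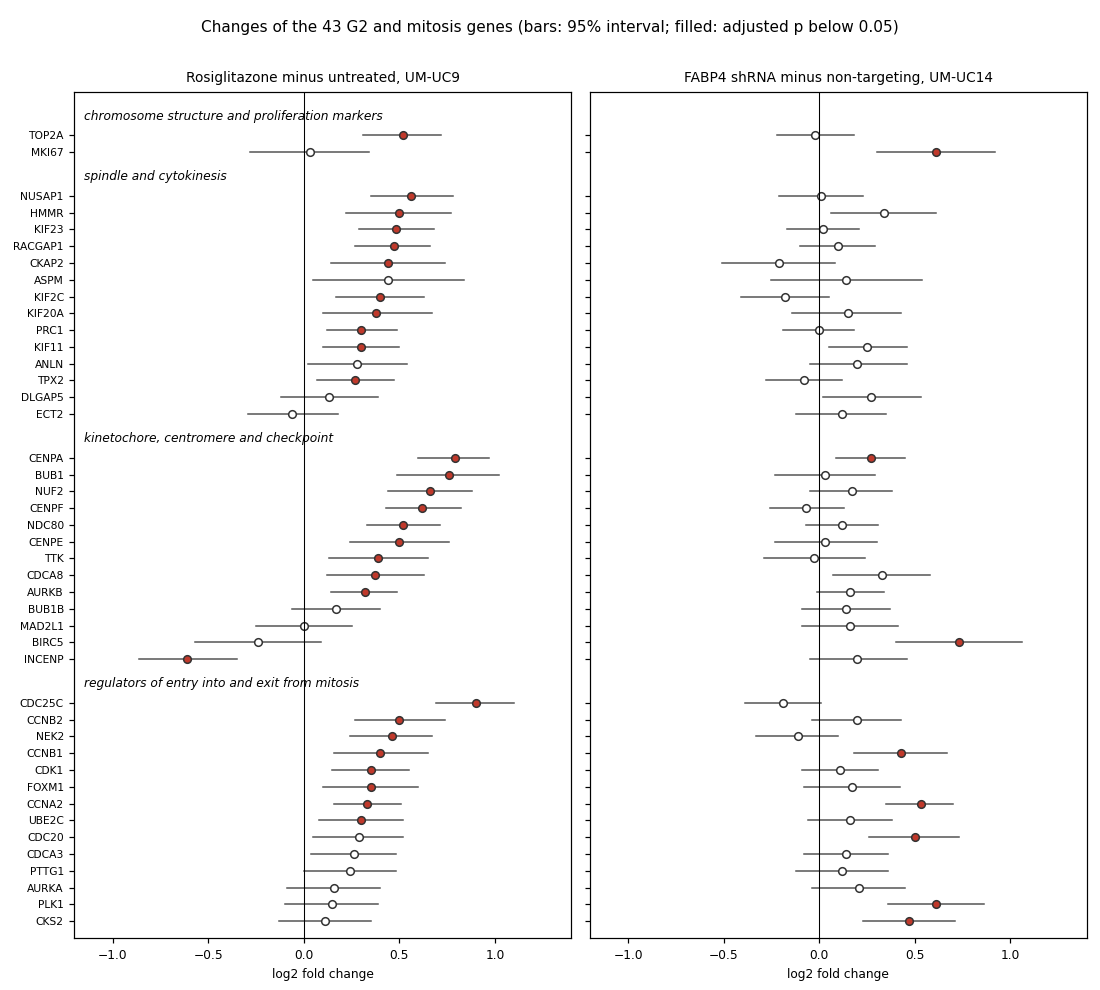
Log2 fold change (horizontal axis) of each of the 43 genes, grouped by role, for rosiglitazone minus untreated in UM-UC9 (left) and FABP4 shRNA minus its non-targeting control in UM-UC14 (right); bars are 95% intervals of the limma fit and filled points have an adjusted p below 0.05. On the left 28 filled points lie above 0 and INCENP lies below; on the right the 8 filled points all lie above 0 and no filled point belongs to a spindle or cytokinesis gene, of which 4 were called higher with median scaling.

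Among the regulators, 8 of 14 rose with the drug, led by CDC25C, against 17% of all tested genes called higher. With median scaling 3 rose, CCNB2, CDC25C and NEK2. CDC25C stood at 7.61, 7.38 and 7.43 on the untreated arrays and at 8.43, 8.35 and 8.34 on the treated ones. The groups were clearly apart, a 1.86-fold rise (log2 change 0.90 ± 0.09, SE, 3 arrays against 3; adjusted p = 1.1e-05), and the gene's other 2 probes rose by 1.22 and 0.93. CDK1, the kinase that drives mitotic entry, read 10.61, 10.54 and 10.55 untreated and 10.89, 10.99 and 10.87 treated. Every treated array was above every untreated one (0.35 ± 0.09, adjusted p = 0.0098). CDK1 lost this call under median scaling (adjusted p = 0.066). Its partner CCNB1, cyclin B1, read 9.22, 8.93 and 8.97 untreated and 9.57, 9.51 and 9.26 treated. The lowest treated array was close to the highest untreated one, and the rise of 0.40 ± 0.11 (adjusted p = 0.014) lost its call when untreated replicate 2, untreated replicate 3 or treated replicate 1 was left out, with changes from 0.34 to 0.50 over all fits without 1 array. FOXM1, the transcription factor that drives this gene set, read 9.11, 9.14 and 9.19 untreated and 9.47, 9.63 and 9.38 treated. It rose by 0.35 ± 0.12 (adjusted p = 0.032). That call was lost when any 1 of the UM-UC9 arrays other than treated replicate 3 was left out (adjusted p up to 0.12). The second FOXM1 probe read 0.18 (adjusted p = 0.323 over all probes).

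The other 4 regulators that rose with rosiglitazone were the B-type cyclin CCNB2 (0.50), the centrosome kinase NEK2 (0.46), cyclin A2 (CCNA2, 0.33) and UBE2C (0.30), the ubiquitin-conjugating enzyme of the anaphase-promoting complex. The call for UBE2C was lost without any 1 of the 6 UM-UC9 arrays, and its other probe read -0.39 (adjusted p = 0.116 over all probes), the mean of both -0.05. The 6 that did not pass were CDC20 (0.29, adjusted p = 0.056), the cell division regulator CDCA3 (0.26), securin PTTG1 (0.24), the spindle pole kinase AURKA (0.16), PLK1 (0.15) and the CDK subunit CKS2 (0.11). The non-targeting arrays of UM-UC14 enter these p-values through the shared model. Without their replicate 1, CDC20 and CDCA3 passed (adjusted p = 0.015 and 0.043), and without their replicate 3, PTTG1 did (adjusted p = 0.039). PLK1, a kinase with roles from entry to cytokinesis, read 7.82, 8.08 and 7.80 untreated and 8.16, 7.93 and 8.04 treated. The 2 groups overlapped, and the interval of its change ran from -0.10 to 0.39.

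Of the 13 kinetochore, centromere and checkpoint genes 9 rose with the drug and INCENP fell, against 17% and 19% of all tested genes. With median scaling 6 rose, BUB1, CENPA, CENPE, CENPF, NDC80 and NUF2, and INCENP fell. CENPA, the histone that marks centromeres, read 8.69, 8.59 and 8.46 untreated and 9.37, 9.33 and 9.40 treated (0.79 ± 0.08, adjusted p = 1.4e-05). BUB1, a checkpoint kinase, read 9.26, 9.27 and 9.15 untreated and 9.94, 10.04 and 9.97 treated (0.76 ± 0.12, adjusted p = 0.00036). The gap between the groups exceeded the range within each of them for both genes. NUF2, a subunit of the microtubule-binding NDC80 complex, read 7.77, 7.72 and 7.81 untreated and 8.38, 8.58 and 8.33 treated (0.66 ± 0.10, adjusted p = 0.00024). CENPF, an outer kinetochore protein, read 8.46, 8.54 and 8.66 untreated and 9.14, 9.26 and 9.13 treated (0.62 ± 0.09, adjusted p = 0.00015). CENPA, BUB1, NUF2 and CENPF kept their call and direction under all 21 alternatives tried. The second kept probe of NUF2 read 0.29 and did not pass (adjusted p = 0.0632 over all probes), while that of CENPA (0.74) was called higher. NDC80, the complex's namesake, rose by 0.52, the kinetochore motor CENPE by 0.50 and the checkpoint kinase TTK by 0.39. The second CENPE probe read 0.41 and did not pass (adjusted p = 0.0503 over all probes). BUB1B (0.17) and MAD2L1 (0.00), 2 checkpoint proteins that restrain CDC20, did not pass, and the interval for MAD2L1 ran from -0.25 to 0.25.

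The chromosomal passenger complex, which corrects faulty attachments and guides cytokinesis, did not move as a unit. Its kinase AURKB rose by 0.32 and its subunit CDCA8 (borealin) by 0.37. INCENP read 7.45, 7.84 and 7.77 untreated and 7.07, 7.25 and 6.91 treated. No treated array reached the lowest untreated one, and the change was -0.61 ± 0.12 (adjusted p = 0.0014), kept under all 21 alternatives. Its second probe, detected on 3 of 12 arrays, read -0.09 (adjusted p = 0.733). BIRC5 (survivin), the fourth subunit, read 8.52, 8.60 and 8.35 untreated and 8.15, 8.29 and 8.30 treated. The groups did not overlap, but the change of -0.24 ± 0.15 did not pass (adjusted p = 0.24, interval -0.57 to 0.09). With non-targeting replicate 1 of UM-UC14 left out of the shared model, BIRC5 was called lower (adjusted p = 0.039).

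Among the 14 spindle and cytokinesis genes 10 rose and 0 fell with rosiglitazone, against 17% and 19% of all tested genes. With median scaling 5 rose, KIF23, NUSAP1, HMMR, CKAP2 and RACGAP1. NUSAP1, which bundles spindle microtubules, rose by 0.56 and HMMR, a spindle assembly factor, by 0.50. The motor KIF23 and the GTPase-activating protein RACGAP1, which together form centralspindlin, rose by 0.48 and 0.47. Their second, dimmer probes read 0.30 and 0.07 and did not pass (adjusted p = 0.221 and 0.766 over all probes). CKAP2 (0.44), a spindle microtubule stabilizer, the microtubule depolymerase KIF2C (0.40) and the cytokinesis motor KIF20A (0.38) rose as well. So did the midzone bundler PRC1 and the bipolar spindle motor KIF11, each by 0.30, and TPX2, the activator of AURKA, by 0.27. The second probe of KIF11 read 0.12 (adjusted p = 0.447 over all probes), while those of NUSAP1 (0.79), HMMR (0.51) and CKAP2 (0.38) were called higher. The spindle pole protein ASPM (0.44, adjusted p = 0.078), the contractile ring scaffold ANLN (0.28), the kinetochore fibre protein DLGAP5 (0.13) and ECT2 (-0.06), which activates RHOA at the cell equator, did not pass.

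The 2 proliferation markers gave different calls. TOP2A, the topoisomerase that untangles sister chromatids, read 10.55, 10.56 and 10.58 untreated and 11.07, 11.04 and 11.12 treated. Its arrays were tight in both groups, and it rose by 0.52 ± 0.09 (adjusted p = 0.00091). MKI67, the chromosome surface protein behind the Ki-67 stain, read 7.61, 7.39 and 7.57 untreated and 7.50, 7.53 and 7.64 treated. The groups overlapped and the change was 0.03 (interval -0.28 to 0.34). Split by promoter, 15 of the 27 members with CHR letters were called higher (median change 0.35), as were 8 of the 9 with a window but without those letters (median 0.40).

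With the FABP4 shRNA in UM-UC14 the count of called members depended on the scaling. Of the 43, 8 were called higher, 0 lower and 35 did not pass, against 14.2% of all tested genes called higher and 12.2% lower (26.3% in either direction). The share of members called higher was 18.6%, so it lay near that of all genes. Their median change was 0.15 and that of all tested genes 0.02. In 13 members all 3 FABP4 shRNA arrays lay above all 3 non-targeting arrays (20.1% of all tested genes), and in 1, CDC25C, all lay below (16.4%). Over the 65 probes 11 were called higher and 1 lower, against 11.4% and 10% of all kept probes. With median scaling 15 members were called higher and 0 lower, with the median of all tested genes at 0.10. Under that scaling 15 members were called higher in each experiment, and the median member changes were 0.277 with rosiglitazone and 0.283 with the FABP4 shRNA.

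Of the 8 risen members 5 were regulators, 35.7% of the 14 regulators, against 14.2% of all tested genes called higher. PLK1 read 6.93, 7.10 and 7.30 with the non-targeting and 7.77, 7.76 and 7.63 with the FABP4 shRNA. All 3 control arrays lay below, and it rose 1.53-fold (0.61 ± 0.12, adjusted p = 0.0022). CCNA2 read 10.75, 10.74 and 10.64 with the non-targeting and 11.19, 11.28 and 11.24 with the FABP4 shRNA (0.53 ± 0.08, adjusted p = 0.00061). CDC20 read 12.23, 11.85 and 11.91 with the non-targeting and 12.54, 12.50 and 12.45 with the FABP4 shRNA (0.50 ± 0.11, adjusted p = 0.0055). For both genes the groups did not overlap. CCNB1 read 9.57, 9.38 and 9.46 with the non-targeting and 9.76, 9.98 and 9.95 with the FABP4 shRNA. It rose by 0.43 ± 0.11 (adjusted p = 0.015), a call lost without non-targeting replicate 2 or FABP4 shRNA replicate 2 or 3, with changes from 0.38 to 0.49 over all fits without 1 array. CKS2 rose by 0.47.

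CDK1 and FOXM1 did not pass with the FABP4 shRNA. CDK1 read 12.13, 12.30 and 12.43 with the non-targeting and 12.38, 12.45 and 12.36 with the FABP4 shRNA, so the groups overlapped (0.11, interval -0.09 to 0.31). FOXM1 read 9.93, 9.67 and 10.07 with the non-targeting and 10.00, 9.95 and 10.22 with the FABP4 shRNA, again with overlap (0.17, interval -0.08 to 0.42). CDC25C read 8.04, 8.01 and 8.18 with the non-targeting and 7.94, 7.78 and 7.93 with the FABP4 shRNA. Its change of -0.19 ± 0.09 did not pass (adjusted p = 0.15).

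Of the 13 kinetochore and centromere genes 2 rose with the FABP4 shRNA, BIRC5 and CENPA, or 15.4%, near the 14.2% of all tested genes. BIRC5 read 10.17, 9.51 and 9.51 with the non-targeting and 10.53, 10.39 and 10.45 with the FABP4 shRNA. Control replicate 1 stood above its fellows but below all FABP4 shRNA arrays. The change was 0.73 ± 0.15 (1.66-fold, adjusted p = 0.0040), and it ranged from 0.62 without non-targeting replicate 3 to 0.95 without replicate 1. A second, dimmer BIRC5 probe read 0.53 (adjusted p = 0.0726 over all probes). CENPA read 9.46, 9.50 and 9.47 with the non-targeting and 9.74, 9.78 and 9.72 with the FABP4 shRNA, a gap wider than the range within either group. Its rise of 0.27 ± 0.08 (adjusted p = 0.032) nevertheless lost the call without any 1 of the UM-UC14 arrays other than non-targeting replicate 1 (adjusted p up to 0.095). The second CENPA probe read 0.19 (adjusted p = 0.22 over all probes), and the call was also lost when the gene's probes were averaged. The other 11 ranged from -0.07 (CENPF) to 0.33 (CDCA8, adjusted p = 0.059), with INCENP at 0.20.

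Of the 14 spindle and cytokinesis genes 0 passed with the FABP4 shRNA, where 14.2% of all tested genes were called higher. That count depended on the scaling and on the control arrays. With median scaling 4 were called higher, HMMR (0.49), DLGAP5 (0.45), KIF11 (0.41) and ANLN (0.36), and against non-targeting replicate 1 alone 5 were, KIF20A, DLGAP5, HMMR, ASPM and ANLN. Without replicate 3 the count was 3 higher, and without replicate 1 it was 1 lower. In the quantile fit their changes ran from -0.21 (CKAP2) to 0.34 (HMMR, adjusted p = 0.070) with a median of 0.11. KIF11 (0.25, adjusted p = 0.059) and DLGAP5 (0.27, adjusted p = 0.11) had unadjusted intervals above 0, as had HMMR. MKI67 rose, from 7.56, 6.87 and 7.41 with the non-targeting to 7.91, 7.87 and 7.89 with the FABP4 shRNA. Control replicate 2 was below the others, and the change of 0.61 ± 0.14 (adjusted p = 0.0078) ranged from 0.40 to 0.75 without 1 array. TOP2A read 12.48, 12.53 and 12.76 with the non-targeting and 12.60, 12.63 and 12.47 with the FABP4 shRNA, with full overlap (-0.02, interval -0.22 to 0.18).

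**Figure D2:**
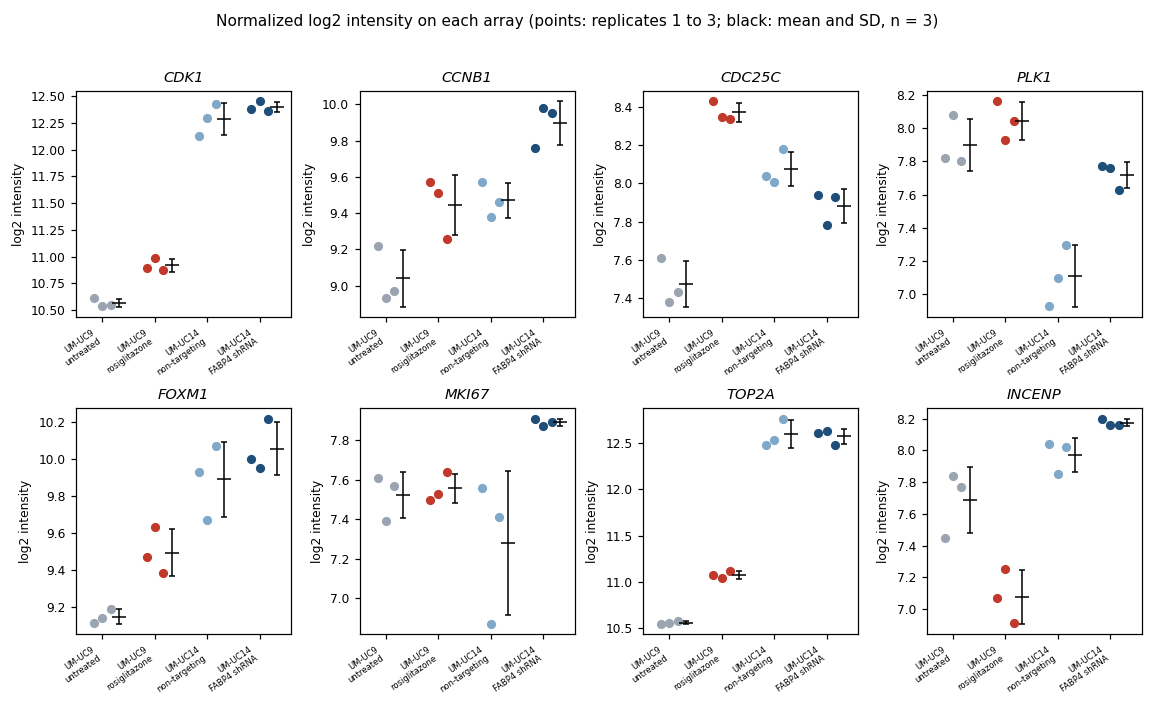
Normalized log2 intensity (vertical axis) of 8 genes on each of the 12 arrays; coloured points are replicates 1 to 3 from left to right and black marks give the mean and SD of 3 arrays. CDC25C and TOP2A step up with rosiglitazone and INCENP steps down, while PLK1 and MKI67 step up with the FABP4 shRNA; each panel has its own axis, and levels of different genes are not comparable.

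The spread of the non-targeting arrays limits the second comparison and, through the shared model, enters the errors of the first. With only the groups of each comparison fitted, 33 members were called with rosiglitazone, against 29, and 6 with the FABP4 shRNA, against 8. CENPA and MKI67 then lost their call with the shRNA. In the shared model without non-targeting replicate 1, 34 members were called with rosiglitazone. The median SD of the members was 0.15 in that group and 0.07 to 0.08 in the other 3, and over all tested genes it was 0.186 against 0.096 to 0.109. Non-targeting replicate 1 was the lowest of its group for 26 members, and the lowest of all 6 UM-UC14 arrays for 21 of them, CDK1, KIF11 and ASPM included. Replicate 3 was the highest of its group for 23 members. ASPM, a spindle pole protein, showed this most plainly, with 9.65, 10.52 and 10.56 on the non-targeting arrays and 10.38, 10.48 and 10.30 on the FABP4 shRNA arrays. Without replicate 1 the count with the FABP4 shRNA was 9 higher and 1 lower, CKAP2 at -0.37, and the median member change was 0.08. With replicate 1 as the only control, 10 members were called higher, but only CCNA2, PLK1 and CKS2 were among the 8 above, and the median was 0.26. That fit assumes that the lone control array varies like the other groups.

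**Figure D3:**
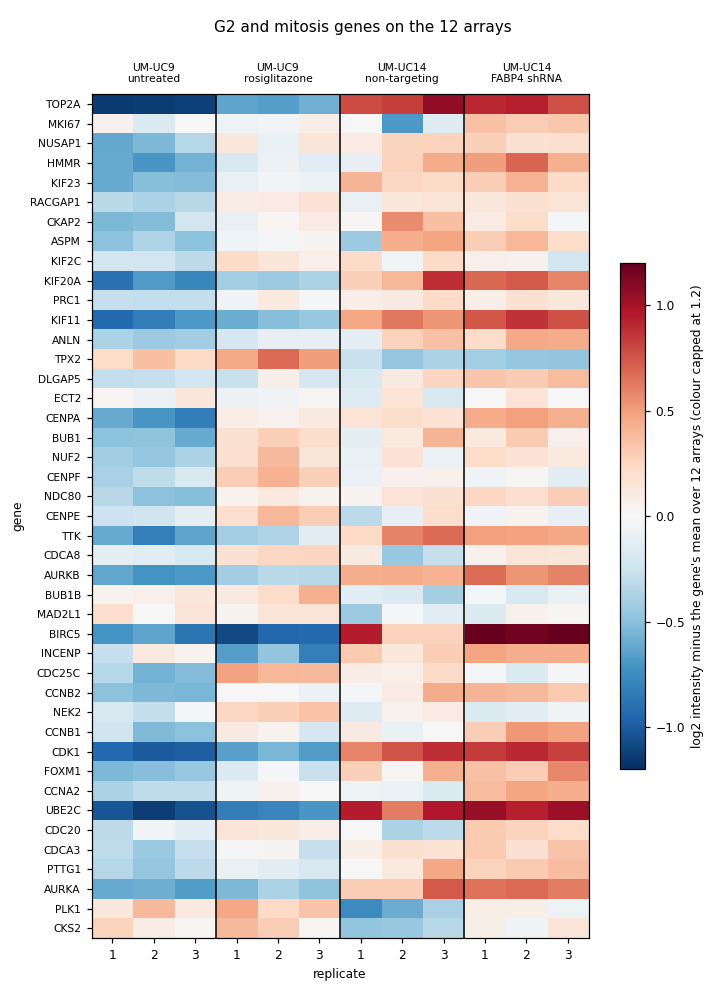
Log2 intensity of each of the 43 genes (rows) on the 12 arrays (columns) minus that gene's own mean over the 12 arrays, with the colour scale capped at 1.2 either way. The untreated UM-UC9 columns are blue for most rows and the rosiglitazone columns paler for most, while within the non-targeting group the columns differ from each other, with replicate 1 the lowest of the 3 for 26 genes.

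Set side by side in the quantile fit, 3 members were called higher in both experiments (CCNA2, CCNB1 and CENPA), 25 with rosiglitazone and not with the shRNA, and 5 with the shRNA and not with rosiglitazone (BIRC5, CDC20, CKS2, MKI67 and PLK1). Over all tested genes these shares were 1.36%, 15.6% and 12.8%. The 9 that passed in neither were ANLN, ASPM, AURKA, BUB1B, CDCA3, DLGAP5, ECT2, MAD2L1 and PTTG1, against 49.3% of all tested genes. ANLN, ASPM and CDCA3 were called higher with rosiglitazone once non-targeting replicate 1 was left out, as was PTTG1 without replicate 3. The difference between the 2 changes was tested directly in the same model, which compares different lines and agents at once. It was called for 19 members, 15 with the larger value for rosiglitazone and 4 with the smaller, against 19.1% and 22.4% of all tested genes (41.5% in all). This split depended on the scaling: with median scaling 3 members were called with the larger value for rosiglitazone and 6 with the smaller, 7 of these 9 as in the quantile fit, and the median of all tested genes moved from -0.04 to -0.15.

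Among the members, CDC25C had the lowest adjusted p of the differences, at 1.09 ± 0.13 (adjusted p = 4.9e-05), from 0.90 with the drug and -0.19 with the shRNA. CENPF followed at 0.69 ± 0.13 (adjusted p = 0.00089), from 0.62 and -0.07. INCENP went the other way at -0.81 ± 0.17 (adjusted p = 0.0019), from -0.61 and 0.20. BIRC5 differed by -0.97 ± 0.22 (adjusted p = 0.0030), from -0.24 and 0.73. CENPA differed by 0.52 ± 0.12 (adjusted p = 0.0039), having risen in both experiments. Of these 5, the difference for CENPA lost its call under median scaling (0.31), and the other 4, with BUB1 (0.72), kept theirs under all alternatives tried. PLK1 (-0.46) and MKI67 (-0.58) also passed, but each lost its call in 7 of 12 fits without 1 array (adjusted p up to 0.094 and 0.077). Spindle genes were called in 6 of 14 cases, all with the larger value for rosiglitazone, CKAP2 (0.65) and KIF2C (0.58) at the top, but with median scaling 0 of the 14 were called. CCNB1 had the smallest difference of the 3 shared risers, -0.02 with an interval from -0.37 to 0.32. Across the 43 members, which share arrays within each experiment, the 2 changes had a Pearson r of -0.46, given as a description.

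**Figure D4:**
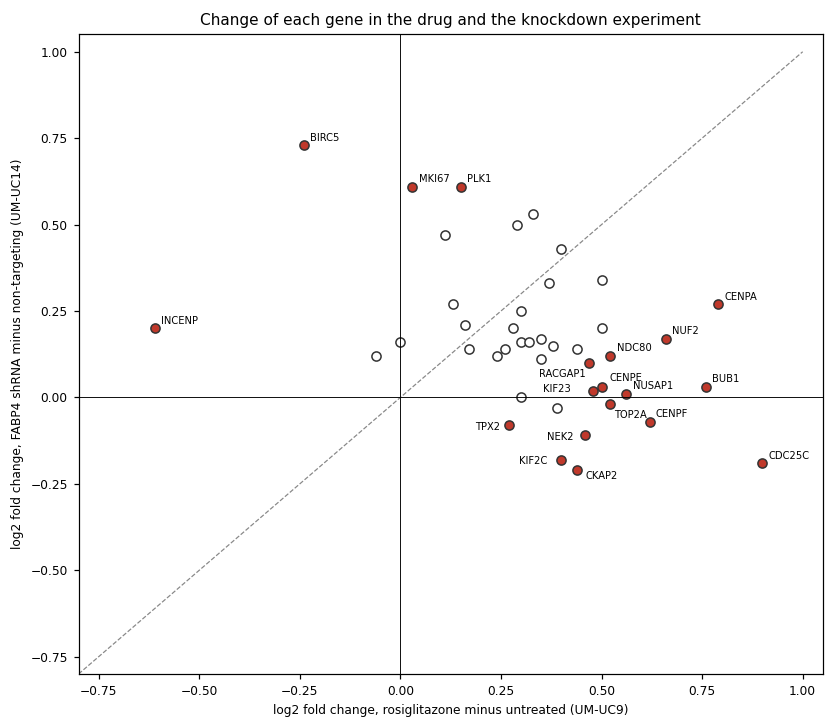
Each point is 1 of the 43 genes, with its log2 fold change for rosiglitazone in UM-UC9 on the horizontal axis and for the FABP4 shRNA in UM-UC14 on the vertical axis; the dashed line marks equal change. Filled, named points are the 19 genes whose difference had an adjusted p below 0.05, of which 15 lie to the right of the line and BIRC5, INCENP, MKI67 and PLK1 to the left.

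The control groups of the 2 lines also differed in these genes. Of the 43 members 9 were at least 2-fold higher in UM-UC14 with its control shRNA than in untreated UM-UC9 cells and 0 were as much lower, against 13% of all tested genes each way (25.9% in all). TOP2A was 4.07-fold higher (log2 2.03 ± 0.09, adjusted p = 1.7e-10), UBE2C 3.76-fold and CDK1 3.30-fold, with no overlap between the groups for any of them. UBE2C read 10.51, 10.41 and 10.49 on the untreated UM-UC9 arrays and 12.48, 12.15 and 12.50 on the UM-UC14 control arrays. Its second, dimmer probe differed by only 0.41 (adjusted p = 0.0602 over all probes). KIF11, KIF20A, BIRC5, TTK, AURKB and AURKA followed with log2 differences from 1.06 to 1.36. The second, dimmer BIRC5 probe differed by 0.22 (adjusted p = 0.348 over all probes). Second probes of CDK1 (1.71), KIF11 (1.18) and AURKA (1.04) were also at least 2-fold higher in UM-UC14. At any size, 32 members were called higher in UM-UC14 and 5 lower, against 33.2% and 34.6% of all tested genes. The 5 were PLK1 (-0.79), TPX2 (-0.64), CKS2 (-0.55), MAD2L1 (-0.31) and BUB1B (-0.31). TPX2 read 11.19, 11.33 and 11.21 in UM-UC9 and 10.70, 10.51 and 10.59 in UM-UC14, and CKS2 12.91, 12.73 and 12.66 against 12.17, 12.19 and 12.31, again without overlap. With median scaling 6 members were at least 2-fold higher, with the median of all tested genes at -0.15. Cell line and shRNA vector cannot be told apart here.

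Genes of the neighbouring cell cycle steps were read from lists of named genes, again by counts. Of all tested genes 17% were called higher and 19% lower with rosiglitazone, and 14.2% higher and 12.2% lower with the FABP4 shRNA. Of 57 other mitotic genes tested, 23 rose and 2 fell with rosiglitazone, with the kinetochore gene CENPI (0.89), the chromatin protein HMGB2 (0.89) and the condensin subunit NCAPG2 (0.78) at the top. With the FABP4 shRNA 12 rose and 3 fell, among them SPC25 (0.88), a partner of NUF2, the centromere protein CENPW (0.80) and WEE1 (-0.69), the kinase that holds CDK1 inactive. Of 50 G1/S and replication genes 2 rose and 21 fell with rosiglitazone, while 28 G2 and mitosis genes rose. Cyclin D1 (CCND1) fell by 1.52, the phosphatase CDC25A by 1.35 and the replication factor MCM10 by 0.80, and cyclin E1 (CCNE1) fell by 0.75. With the FABP4 shRNA 13 rose and 3 fell, led by CDC25A (0.98) and the replication helicase subunits GINS2 (0.80) and GINS4 (0.64). That count was 22 with median scaling, 23 without non-targeting replicate 1 and 4 with replicate 1 as the only control.

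The smaller lists are read against the same shares of all tested genes, 17% higher and 19% lower with rosiglitazone and 14.2% higher and 12.2% lower with the FABP4 shRNA. Of 13 anaphase-promoting complex genes 1 rose (CDC16, 0.29) and 1 fell (ANAPC13, -0.44) with rosiglitazone. With the FABP4 shRNA 2 rose (CDC26, 0.43, and ANAPC2, 0.38), or 15.4%, near the share of all genes. Of 12 DREAM and MuvB genes 5 (41.7%) fell with rosiglitazone, including the repressor E2F5 (-0.78), the chromatin subunit RBBP4 (-0.67) and the repressor E2F4 (-0.58). With the FABP4 shRNA the pocket protein RBL2 (-0.90) and TFDP2 (-0.60) fell and E2F4 rose (0.47). The activator MYBL2 passed in neither (0.26 and 0.00), nor did E2F1 (0.11 and 0.36). Of 11 CDK inhibitors and growth arrest genes 5 rose (45.5%) and 2 fell (18.2%) with rosiglitazone. GADD45B (1.71) and GADD45A (0.95), stress genes that can halt cells in G2, rose, and the CDK inhibitor CDKN1A fell by 0.99. With the FABP4 shRNA GADD45B (-1.89) and GADD45A (-1.44) fell, SFN rose by 0.58, and CDKN1A did not pass (-0.22).

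**Figure D5:**
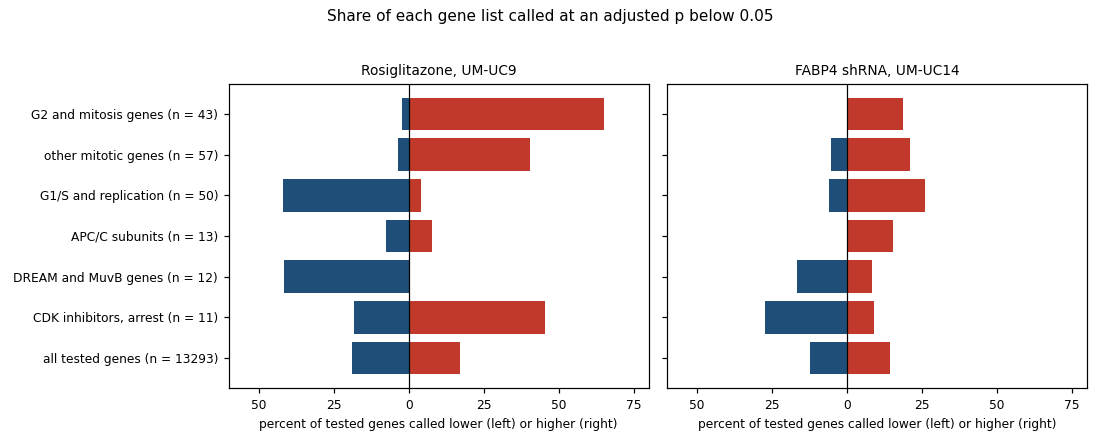
Percent of the tested genes of each list called higher (red, right of 0) or lower (blue, left of 0) at an adjusted p below 0.05, for rosiglitazone in UM-UC9 (left panel) and the FABP4 shRNA in UM-UC14 (right panel), with all 13293 tested genes in the bottom row; APC/C is the anaphase-promoting complex. With rosiglitazone 65.1% of the G2 and mitosis genes were higher and 42.0% of the G1/S genes lower, and with the FABP4 shRNA 18.6% and 26.0% of these lists were higher.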

How the data were processed

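Total RNA of 12 samples, labelled per the labels as biotin-labelled cRNA, was read on Illumina bead arrays, 3 arrays per group. The authors deposited a table of bead-summary intensity with a detection p-value for each of 47323 probes on each array, not background-corrected or normalized, and separately a table of normalized log2 values. Within an array the deposited log2 values differed by at most 0.0106 from quantile-normalized log2 intensities, and they served as an alternative. The sources used here name no scanner, software or scan batch. Groups follow the labels.

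From the intensities, limma 3.58.1 (R 4.3.3) computed background-corrected, quantile-normalized log2 values (neqc, offset 16, with background estimated from the detection p-values). Probes detected at p below 0.05 on at least 3 arrays were kept, 25176 in all, of which 18384 name 1 gene in the platform annotation. A gene was represented by its brightest kept probe, giving 13293 genes. Then 1 linear model with a mean per group (lmFit, eBayes; 8 residual and 5.43 prior degrees of freedom) gave every comparison, with Benjamini-Hochberg adjusted p-values over all genes. For the line comparison a 2-fold change was also required. On simulated data with 200 of 13293 genes changed in the rosiglitazone comparison, 97% of changes of log2 1 and 45% of those of log2 0.5 were recovered, with 3 false calls. Precision is limited by the number of arrays.

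The members and lists were chosen with earlier results of these data known. Named with array values were CDK1, CCNB1, CDC25C, PLK1, FOXM1, MKI67 and TOP2A always, the 5 called members with the largest change in each experiment, members called in the rarer direction, the 5 differences with the lowest adjusted p and the 3 largest line differences each way. From every other cell cycle list the 3 called genes with the largest change were named, with E2F1, CDKN1A, MYBL2, CCND1 and CCNE1 always. The cell type marker lists were given as sums, and their called genes were not named. ASPM's array values, the members named by their second probes and the 4 printed promoters were picked after their values were seen. Alternatives were median scaling, the deposited values, other backgrounds, filters and probe choices, leaving out each array, 1 control array and the replicate block. Promoters came from RefSeq (GRCh38.p14), and figures were drawn with Python 3.11.15 and matplotlib 3.10.9.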

Additional observations from a re-analysis of the deposited data

Results flagged for a closer look

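For 19 G2 and mitosis genes the change with rosiglitazone in UM-UC9 differed from the change with the FABP4 shRNA in UM-UC14 when the difference itself was tested (limma, adjusted p below 0.05 over all genes, 3 arrays in each of 4 groups). The cell line, the agent and the direction in which FABP4 moved differ together in this contrast and cannot be told apart, and 41.5% of all tested genes passed it.

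In 15 genes the rosiglitazone change was the larger. Among regulators these were CDC25C (1.09) and NEK2 (0.57). Among kinetochore and centromere genes they were BUB1 (0.72), CENPF (0.69), CENPA (0.52), NUF2 (0.49), CENPE (0.47) and NDC80 (0.40). Among spindle genes they were CKAP2 (0.65), KIF2C (0.58), NUSAP1 (0.55), KIF23 (0.46), RACGAP1 (0.37) and TPX2 (0.35), and TOP2A (0.54) was the 15th. In 4 genes it was the smaller: BIRC5 (-0.97), INCENP (-0.81), MKI67 (-0.58) and PLK1 (-0.46). Under median scaling the split was 3 larger and 6 smaller, and 5 of the 19 kept their call under all alternatives tried (CDC25C, BUB1, CENPF, INCENP and BIRC5). With each array left out in turn 13 of the 19 kept their call. The calls lost were those of CENPE and TPX2 (9 of 12 fits each), PLK1, MKI67 and RACGAP1 (7 each) and NDC80 (1).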

How the results depend on the processing

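Of 131 counts and medians under alternatives, 124 stayed within their tolerance (a factor of 1.5 for counts, the spread between replicates for medians). That total overstates the stability, because some values could not move. Leaving out an array of the other line cannot change a median, which stayed at 0.352 with rosiglitazone and 0.146 with the FABP4 shRNA. The deposited values also nearly repeat the setting without background correction. Under median scaling the called members numbered 16 with rosiglitazone, 15 with the FABP4 shRNA and 9 for the difference, whose balance turned from 15 higher and 4 lower to 3 and 6, the median member changes were 0.277 and 0.283, and 21 member probes were called with rosiglitazone against 36 in the quantile fit (chosen after seeing the data). The medians of all tested genes then moved to -0.053, 0.099 and -0.153, and the cause of the difference was not tested. Against non-targeting replicate 1 alone the median FABP4 shRNA change was 0.263. Leaving out 1 array at a time, called members ranged from 21 to 34, 6 to 12, 14 to 23 and, for the lines, 8 to 9, and the median changes from 0.313 to 0.359 and 0.078 to 0.189. The lowest FABP4 shRNA median, 0.078 against 0.146, came without non-targeting replicate 1, and its highest count, 12 against 8, without replicate 3. Of the single genes 1 reversed, UBE2C at -0.05 with rosiglitazone when its probes were averaged. Replicate numbers are shared across groups, but same-numbered arrays deviated together only weakly (correlations -0.036 to 0.147), and not every array correlated best with its own number. With the replicate number as a block, 28, 8 and 17 members were called, and 9 between lines.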

Other observations

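Members with several probes did not always give 1 answer. Of the 22 further probes, 20 had the sign of the gene's main probe with rosiglitazone and 19 with the FABP4 shRNA. The second probe of UBE2C was higher with the FABP4 shRNA (0.69, adjusted p = 0.0141 over all probes) while the main probe was called with rosiglitazone. The second probe of RACGAP1 was lower with the FABP4 shRNA (-0.50, adjusted p = 0.0187), where the main probe read 0.10. DLGAP5, not called by its main probe, was higher with the FABP4 shRNA by its second (0.37, adjusted p = 0.0416). The difference between the experiments was not called by the second probes of NUF2 (0.16), CENPE (0.19), CKAP2 (0.42) and INCENP (-0.34). It was called, with the sign of the main probe, by further probes of CDC25C, CENPA, NEK2, NUSAP1, KIF23, RACGAP1 and BIRC5. Which transcripts these probes reach was not analysed here.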
